A study of Mus musculus with 18 samples.

Results

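The genes described here encode enzymes of the mevalonate and squalene pathways, which make cholesterol, together with 1 regulator of those enzymes. They were named as a set of 8: Hmgcs1, Pmvk, Mvd, Idi1, Fdps, Fdft1, Sqle and Insig1. Each gene was represented by the probe set that matches it alone and has the highest mean over all arrays. By that rule 7 of the 8 genes had a probe set, and all 7 were bright enough to be tested, among 6873 tested genes and 12393 genes with a probe set. Insig1 is not analysed here. The set was named for synthesis and uptake, but none of the 7 measured genes encodes an uptake receptor, so the values below concern synthesis.

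Cholesterol is built from acetyl units. Hmgcs1 makes HMG-CoA, the precursor of mevalonate; Pmvk and Mvd carry phosphorylated mevalonate to isopentenyl diphosphate; Idi1 and Fdps convert that unit to farnesyl diphosphate; Fdft1 joins farnesyl units to squalene, and Sqle oxidises squalene on the way to lanosterol. Farnesyl diphosphate also feeds protein prenylation, dolichol and ubiquinone. When sterols in the endoplasmic reticulum are low, the carrier Scap lets the transcription factors SREBP1 and SREBP2, encoded by Srebf1 and Srebf2, leave for the Golgi, where they are cut and then activate the genes of this pathway. Insig1 and Insig2 hold Scap back when sterols are high. T cells that leave rest and prepare to divide need membrane lipid, and induction of sterol synthesis is a known part of T cell activation.

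RNA was measured on 18 Affymetrix Mouse Genome 430A 2.0 arrays in 6 groups of 3, which the series design calls independent biological replicates. The groups were wild-type (WT) CD4+ T cells with XCT790, WT cells with compound A, stimulated ERRa-/- (ERRKO) cells, stimulated WT cells, resting ERRKO cells and resting WT cells. All mice were 6 to 8 weeks old, resting cells were collected straight after isolation, and stimulated cells had spent 12 h with anti-CD3 and anti-CD28 antibodies (10 µg). ERRα, encoded by Esrra, is an orphan nuclear receptor that drives genes of mitochondrial metabolism. Of the 2 inhibitors of ERRα, each used at 20 µM, XCT790 is known as an inverse agonist, and compound A is given by that name alone. The labels give no vehicle, and the untreated stimulated cells served as the controls of both inhibitors.

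Of the 6 inhibitor arrays the stimulation field says that the cells were not stimulated, while the protocol and the series design put both inhibitors into the 12 h stimulation. Il2, the cytokine gene induced by T cell receptor signals, read 10.93 ± 0.29 with XCT790, 10.32 ± 0.45 with compound A, 11.25 ± 0.11 in stimulated WT cells and 4.46 ± 0.44 in resting WT cells (log2 signal, mean ± SD, n = 3 each). Both inhibitor groups lay far nearer to the stimulated than to the resting level of Il2, and they are compared below with stimulated and with resting WT cells. Esrra read 4.45 ± 0.23 in stimulated ERRKO cells against 5.37 ± 0.09 in stimulated WT cells, a difference of -0.92 (limma, adjusted p = 3.31e-04). The bacterial spike-in dap set the arrays of ERRKO or inhibitor-treated cells apart from those of untreated WT cells: its 5′ probe set read 8.00 ± 0.307 on the 12 ERRKO or inhibitor arrays and 5.11 ± 0.861 on the 6 untreated WT arrays (log2 signal, mean ± SD). Comparisons of inhibitor or ERRKO arrays with untreated WT arrays cross that division, and group and division cannot be told apart in them. The mean of 4 T cell markers was high in all 6 groups, from 10.86 with XCT790 to 12.41 in resting WT cells. The mean of 6 macrophage markers was 2.50 to 2.57 in the stimulated and inhibitor-treated groups, against 9.14 in resting ERRKO and 8.45 in resting WT cells (log2 signal). In RNA from a mixed sample, fewer cells of a type and less RNA per cell cannot be told apart.

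Promoter sequence from RefSeq (GRCm38.p6) was held for 5 of the 8 genes, in 6 windows reaching from 250 bases before the start site to 50 after it. The 250 bases before the start of 3 genes are shown. They hold matches to motifs that SREBP or its partner NF-Y is known to bind, a sterol element in Hmgcs1 alone of the 3. An Insig1 window also held an NF-Y box, at -216, as did a Pmvk window, at -136, and neither is shown. Capitals mark matches, on either strand, to the sterol regulatory element TCACNCCAC, the NF-Y box CCAAT and the ERR half-site AAGGTCA. The windows are chr13:119690101-119690350 on the plus strand for Hmgcs1, chr13:8885356-8885605 on the plus strand for Idi1 and chr8:122443423-122443672 on the minus strand for Mvd, each written 5′ to 3′ along the gene.
Hmgcs1: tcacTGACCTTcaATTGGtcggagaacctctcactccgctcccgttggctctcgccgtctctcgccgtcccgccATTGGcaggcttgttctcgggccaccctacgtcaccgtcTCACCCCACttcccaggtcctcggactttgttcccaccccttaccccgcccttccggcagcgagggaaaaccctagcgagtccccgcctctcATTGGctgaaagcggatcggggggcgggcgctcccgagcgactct
Idi1: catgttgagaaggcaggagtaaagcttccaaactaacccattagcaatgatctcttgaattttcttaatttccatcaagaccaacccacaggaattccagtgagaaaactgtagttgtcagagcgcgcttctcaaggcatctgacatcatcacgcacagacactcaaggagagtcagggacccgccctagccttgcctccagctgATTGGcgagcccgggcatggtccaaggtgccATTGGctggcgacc
Mvd: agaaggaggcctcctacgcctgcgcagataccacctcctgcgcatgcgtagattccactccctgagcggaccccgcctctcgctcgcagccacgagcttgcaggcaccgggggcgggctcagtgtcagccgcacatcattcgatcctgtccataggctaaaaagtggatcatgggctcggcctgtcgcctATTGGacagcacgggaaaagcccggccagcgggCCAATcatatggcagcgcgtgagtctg
The Hmgcs1 window held 1 sterol regulatory element starting at -137 relative to the start site, 3 NF-Y boxes upstream of the start and 1 ERR half-site at -246. The Idi1 window held NF-Y boxes at -45 and -14, and the Mvd window at -60 and -27. Over all 32851 windows in the table, 1.24% held the sterol element, 37.4% an NF-Y box and 4.72% an ERR half-site. Among the 6 windows of these genes 1, 5 and 1 did, in that order of motifs. A match describes letters and is not a binding site, and a window without one says nothing about the factor. For Fdps, Fdft1 and Sqle no sequence is shown.

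Most genes of the set were higher after stimulation in WT cells. Resting cells were not cultured, and no untreated group spent 12 h in culture without antibodies. The antibodies and the time in culture cannot be told apart in comparisons of stimulated with resting cells of either genotype. Of the 7 genes, 6 were higher in stimulated than in resting WT cells at an adjusted p under 0.05, and Mvd did not pass. In this comparison 75.4% of all tested genes passed and 37% passed upwards, so a pass by itself sets a gene little apart. The median log2 difference of the 7 genes was 1.42, beside -0.01 over all genes tested.

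Hmgcs1 read 11.35, 11.40 and 11.27 (log2 signal) in stimulated WT cells, against 10.07, 10.28 and 9.95 in resting WT cells. Pmvk, the phosphomevalonate kinase, read 7.92, 8.02 and 7.97 in stimulated WT cells and 6.41, 6.74 and 6.49 in resting WT cells. Neither gene's groups overlapped, and the log2 differences were 1.24 ± 0.13 (SE, adjusted p = 7.95e-07) for Hmgcs1 and 1.42 ± 0.17 (adjusted p = 3.12e-06) for Pmvk. Mvd, the decarboxylase that follows Pmvk, read 5.42, 5.59 and 5.49 in stimulated WT cells against 5.23, 5.23 and 5.29 in resting WT cells. Its groups did not overlap either, which held for all 7 genes and, upwards, for 41.3% of all tested genes, but its difference of 0.25 ± 0.26 did not pass (adjusted p = 0.395). It passed when only these 2 groups were fitted (adjusted p = 0.0101), a fit that does not take in the wide spread of Mvd in resting ERRKO cells.

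The isomerase gene Idi1 moved furthest. It read 11.26, 11.26 and 11.28 in stimulated WT cells and 8.18, 8.25 and 8.12 in resting WT cells, a log2 difference of 3.08 ± 0.16. Fdps, the farnesyl diphosphate synthase, read 10.63, 10.67 and 10.71 in stimulated WT cells, against 8.71, 9.04 and 8.87 in resting WT cells, which is 3.48-fold higher (adjusted p = 7.57e-08). Both genes had stimulated arrays within a narrow band and resting arrays far below it. Fdft1, the squalene synthase, read 10.04, 9.91 and 9.84 in stimulated WT cells and 8.46, 8.68 and 8.54 in resting WT cells, or 2.59-fold (adjusted p = 2.88e-07). Sqle, the squalene epoxidase, read 9.46, 9.62 and 9.58 in stimulated WT cells and 7.21, 7.36 and 7.46 in resting WT cells, a log2 difference of 2.21 ± 0.13. These signals are relative to the other genes on each array, because all arrays were brought to the same distribution. All 6 macrophage and 3 B cell markers tested were lower in stimulated than in resting WT cells, with median differences of -6.49 and -4.05. Of 4 erythroid markers 3 were lower, and of 6 neutrophil markers 1. The part of the other cell types in the rise was not tested.

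**Figure D1:**
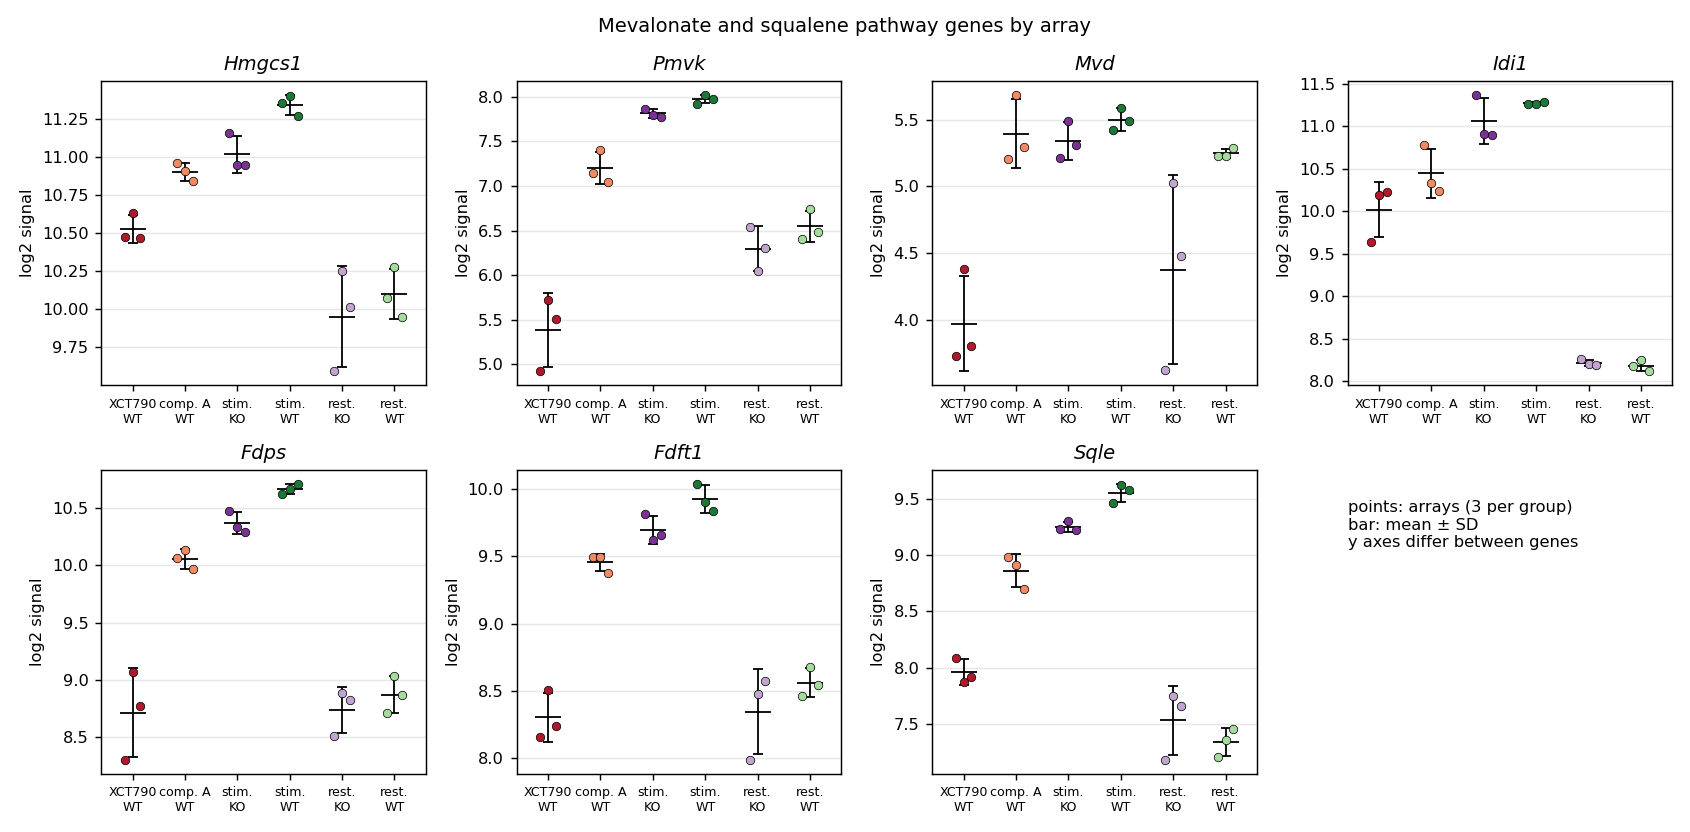
Log2 signal (y axis, scaled for each gene) of the 7 measured genes on every array, with 3 arrays per group; points are arrays and bars are means ± SD. Stimulated WT cells have the highest mean in all 7 genes, while XCT790-treated cells have the lowest in Pmvk, Mvd, Fdps and Fdft1.

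All of these genes were lower with XCT790. Relative to stimulated WT cells, 7 of 7 genes were lower with XCT790 at an adjusted p under 0.05, where 66% of all tested genes passed and 36.9% passed downwards. The median log2 difference was -1.59 for the 7 genes and -0.06 for all genes tested, and for each of the 7 the groups' arrays did not overlap, as was so in the same direction for 42.9% of all tested genes.

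Hmgcs1 read 10.48, 10.63 and 10.47 with XCT790, all below the stimulated WT arrays listed above, and its difference of -0.81 ± 0.13 was the smallest of the 7 (1.76-fold lower, adjusted p = 8.32e-05). Pmvk read 4.92, 5.73 and 5.51 with XCT790, which was 5.99-fold lower than stimulated WT cells (log2 difference -2.58 ± 0.17, adjusted p = 2.15e-08). Pmvk thus had the largest difference of the set, and its XCT790 arrays also lay below every resting array. Mvd read 3.73, 4.38 and 3.80 with XCT790, so that 2 of its 3 arrays were under log2 4, the level that a gene had to reach on at least 3 arrays to be tested. With values under log2 4 set to 4 it was 2.59-fold lower than in stimulated WT cells (log2 difference as measured -1.53 ± 0.26, adjusted p = 1.32e-04).

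In the later steps Idi1 read 9.64, 10.19 and 10.22 with XCT790, 2.38-fold lower than in stimulated WT cells (log2 difference -1.25 ± 0.16, adjusted p = 1.08e-05). Fdps read 8.30, 9.07 and 8.78 with XCT790, or 3.88-fold lower (log2 difference -1.96 ± 0.15, adjusted p = 9.29e-08). Fdft1 read 8.16, 8.51 and 8.24, or 3.09-fold lower (adjusted p = 1.30e-07), and Sqle read 8.09, 7.87 and 7.92, or 3.01-fold lower (adjusted p = 1.04e-07). The branch-point genes Fdps and Fdft1 were down to their resting range, whereas Idi1 stayed far above its own.

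The resting WT arrays give that comparison directly. With XCT790, Idi1 was 3.57-fold higher than in resting WT cells (log2 difference 1.83 ± 0.16, adjusted p = 1.33e-07), Sqle was higher by 0.62 ± 0.13 (adjusted p = 5.14e-04) and Hmgcs1 by 0.43 ± 0.13 (adjusted p = 0.00992). Pmvk was 2.23-fold lower than at rest (log2 difference -1.16 ± 0.17, adjusted p = 2.97e-05), and Mvd differed by -1.28 ± 0.26 (adjusted p = 5.15e-04). Fdps differed from resting WT cells by -0.16 (95% interval -0.49 to 0.17, adjusted p = 0.377) and Fdft1 by -0.26 (-0.54 to 0.03, adjusted p = 0.0976), and both overlapped the resting arrays; Fdft1 passed without XCT790 array 2 (-0.36, adjusted p = 0.0355) and without resting ERRKO array 1 (adjusted p = 0.0246). So 3 of the 7 genes were higher and 2 lower than at rest, where 71.9% of all tested genes passed, 33.6% upwards and 38.3% downwards.

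Compound A had a smaller difference in the same direction. Of the 7 genes, 6 were lower with compound A than in stimulated WT cells, where 33.2% of all tested genes passed and 18.7% passed downwards, and the median log2 difference was -0.62, beside -0.03 over all genes tested. Both inhibitors are set against the same 3 stimulated WT arrays, so the 2 sets of differences are not independent of each other.

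Hmgcs1 read 10.96, 10.90 and 10.84 with compound A (difference from stimulated WT cells -0.44 ± 0.13, adjusted p = 0.0214), and Pmvk read 7.15, 7.40 and 7.05 (-0.77 ± 0.17, adjusted p = 0.00404). Both lay between the stimulated and the resting WT arrays without overlap. Mvd read 5.20, 5.68 and 5.30 with compound A, overlapping the stimulated WT arrays, and differed from them by -0.10 (95% interval -0.67 to 0.46, adjusted p = 0.813). Idi1 read 10.77, 10.32 and 10.24 with compound A and was 1.76-fold lower than in stimulated WT cells (-0.82 ± 0.16, adjusted p = 0.00185). Fdps read 10.06, 10.14 and 9.97 with compound A (-0.62 ± 0.15, adjusted p = 0.00770). Fdft1 read 9.49, 9.49 and 9.38 (-0.47 ± 0.13, adjusted p = 0.0143), and Sqle read 8.98, 8.91 and 8.70 (-0.69 ± 0.13, adjusted p = 0.00113). None of these 4 genes overlapped the stimulated WT arrays, which makes 6 of 7 with the first 2, beside 33.3% of all tested genes in that direction.

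Set against resting WT cells, 6 of the 7 genes were higher with compound A, where 69.7% of all tested genes passed and 32.6% passed upwards. The differences ran from 0.65 ± 0.17 in Pmvk (adjusted p = 0.00394) to 2.26 ± 0.16 in Idi1 (adjusted p = 2.05e-08), and Mvd differed by 0.15 (95% interval -0.42 to 0.71, adjusted p = 0.631).

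Against stimulated WT cells, the call for Hmgcs1 with compound A ended when stimulated WT array 1 or 2 or compound A array 2 or 3 was left out (adjusted p = 0.0564 to 0.0720), and that for Fdft1 without stimulated WT array 1 (adjusted p = 0.0584) or compound A array 3 (adjusted p = 0.0565). Stimulated ERRKO arrays lie on the inhibitors' side of the spike-in division, and setting the inhibitors against them was added after seeing the data. Against them XCT790 was lower in 7 of 7 genes, by -0.49 ± 0.13 in Hmgcs1 to -2.42 ± 0.17 in Pmvk, where 33.9% of all tested genes passed downwards. Compound A was then lower in 3 genes, where 12% of all tested genes passed downwards: Pmvk (-0.61 ± 0.17, adjusted p = 0.0191), Idi1 (-0.61 ± 0.16, adjusted p = 0.0143) and Sqle (-0.39 ± 0.13, adjusted p = 0.0375). Fdps (-0.32, adjusted p = 0.149), Fdft1 (-0.24, adjusted p = 0.193) and Hmgcs1 (-0.11, adjusted p = 0.567) did not pass. That choice of cells also changes the genotype, and the part of the spike-in division in the compound A differences was not tested.

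The 2 inhibitors form 1 pair of compounds, measured at the same dose and time, and the arrays of both lie on the same side of the spike-in division. XCT790 was lower than compound A in 7 of 7 genes, where 52.6% of all tested genes passed and 27.8% passed downwards, with a median log2 difference of -1.15 beside -0.01 over all genes. The largest differences between them were in Pmvk (-1.81 ± 0.17, 3.50-fold, adjusted p = 1.45e-06), Mvd (-1.42 ± 0.26, 2.41-fold with values under log2 4 set to 4, adjusted p = 3.95e-04), Fdps (-1.34 ± 0.15, 2.53-fold, adjusted p = 7.50e-06) and Fdft1 (-1.15 ± 0.13, 2.22-fold, adjusted p = 7.80e-06). Sqle differed by -0.90 ± 0.13 (1.87-fold, adjusted p = 4.22e-05). The 2 smallest were Idi1 (-0.43 ± 0.16, adjusted p = 0.0394) and Hmgcs1 (-0.38 ± 0.13, adjusted p = 0.0276). For Idi1 the difference shrank to -0.24 without XCT790 array 1 (adjusted p = 0.214) and to -0.27 without compound A array 1 (adjusted p = 0.197), and its other measurable probe set gave -0.39 (adjusted p = 0.208). For Hmgcs1 the call ended without XCT790 array 1 or 3 or compound A array 1 or 2 (adjusted p = 0.0613 to 0.0790). Markers of T cells moved between the inhibitors too: the mean of 4 such genes was 10.86 ± 0.08 with XCT790, 11.62 ± 0.05 with compound A and 11.57 ± 0.10 in stimulated WT cells, and its part in these differences was not tested.

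Placed on the scale that runs between resting WT cells (0%) and stimulated WT cells (100%) in log2 signal, the same values were spread widely with XCT790. With XCT790, Idi1 stood at 59.5% of the stimulated difference, Hmgcs1 at 34.4% and Sqle at 28%, while Fdps stood at -8.72%, Fdft1 at -18.8% and Pmvk at -81.3%. With compound A the same 6 genes stood much closer to one another, from 45.7% for Pmvk to 73.4% for Idi1. Mvd is left out of this scale because its difference between stimulated and resting WT cells did not pass.

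**Figure D2:**
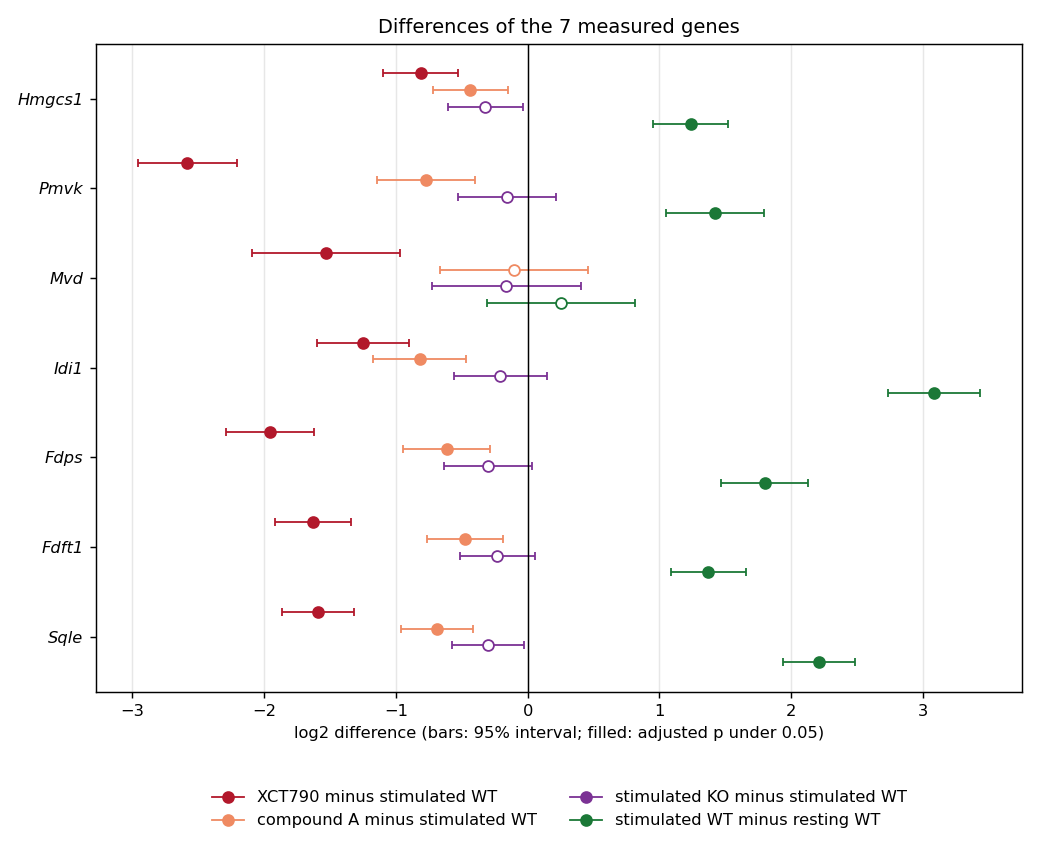
Log2 differences (x axis) of the 7 genes in 4 comparisons, with 95% intervals from limma; filled points have an adjusted p under 0.05. XCT790 lies left of compound A in every gene, from -0.81 in Hmgcs1 to -2.58 in Pmvk against stimulated WT cells, and in stimulated ERRKO minus stimulated WT cells all points are open, between -0.16 and -0.32.

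Cells without ERRα raised the pathway as well. In ERRKO cells 7 of 7 genes were higher after stimulation than at rest, where 73.4% of all tested genes passed and 37.7% passed upwards, with a median log2 difference of 1.51 beside 0.01 over all genes. Markers of other cells moved the other way. All 6 macrophage, 4 erythroid, 6 neutrophil and 3 B cell markers tested were lower in stimulated than in resting ERRKO cells. Their median differences were -7.30, -7.86, -3.94 and -3.73, in that order. The part of these cells in the rise was not tested. Idi1 read 11.37, 10.91 and 10.90 in stimulated ERRKO cells, against 8.26, 8.20 and 8.19 in resting ERRKO cells, a 7.17-fold difference (2.84 ± 0.16, adjusted p = 1.56e-09). Sqle read 9.23, 9.30 and 9.22 in stimulated ERRKO cells and 7.18, 7.75 and 7.66 in resting ERRKO cells (1.72 ± 0.13, adjusted p = 2.00e-08). Both genes' stimulated arrays were well clear of the resting ones. Fdps was higher by 1.63 ± 0.15, Pmvk by 1.51 ± 0.17, Fdft1 by 1.36 ± 0.13 and Hmgcs1 by 1.06 ± 0.13. Mvd read 5.21, 5.49 and 5.31 in stimulated ERRKO cells against 3.63, 5.03 and 4.48 in resting ERRKO cells (0.96 ± 0.26, adjusted p = 0.00427), and fitted on these 2 groups alone it did not pass (adjusted p = 0.0530).

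After stimulation, no gene of the set differed by genotype at an adjusted p under 0.05 in limma, where 2.18% of all tested genes passed. An unadjusted p under 0.05 was found for 2 of the 7 genes, Hmgcs1 and Sqle, and for 1065 of all 6873 tested genes. Hmgcs1 read 11.15, 10.95 and 10.95 in stimulated ERRKO cells, a difference from stimulated WT cells of -0.32 (95% interval -0.61 to -0.04, adjusted p = 0.256). Sqle differed by -0.30 (-0.57 to -0.03, adjusted p = 0.269), and Fdps, which read 10.48, 10.34 and 10.29 in stimulated ERRKO cells, by -0.30 (-0.63 to 0.03, adjusted p = 0.382). Pmvk read 7.86, 7.79 and 7.78 and Fdft1 9.82, 9.62 and 9.66 in stimulated ERRKO cells, with differences of -0.16 and -0.23. All 7 estimates were below 0, between -0.16 and -0.32, with a median of -0.23 beside -0.06 over all genes tested. In 5 of the 7 genes every stimulated ERRKO array lay below every stimulated WT array, which held for 23% of all tested genes. With arrays weighted by their quality, 5 genes passed downwards, where 15% of all tested genes did so: Hmgcs1 (-0.39), Fdps (-0.35), Idi1 (-0.34), Sqle (-0.30) and Fdft1 (-0.27), though the weight estimation stopped before it converged. This comparison crosses the spike-in division.

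At rest, 1 of the 7 genes differed by genotype, where 19% of all tested genes passed and 12.3% passed downwards. Mvd was lower in resting ERRKO cells by -0.87 ± 0.26 (adjusted p = 0.0346), but this rests on resting ERRKO array 1, which read 3.63: without it the difference was -0.50 (adjusted p = 0.121). The call also ended without resting WT array 1, 2 or 3 (adjusted p = 0.0643 to 0.0958), and a second probe set of Mvd gave -0.30 (adjusted p = 0.562). Resting Hmgcs1 read 9.59, 10.25 and 10.01 in ERRKO cells and overlapped the WT arrays. Pmvk read 6.54, 6.05 and 6.30, Fdps 8.51, 8.88 and 8.83, and Fdft1 7.98, 8.48 and 8.57 in resting ERRKO cells, each again overlapping. The 6 genes other than Mvd differed by -0.25 to 0.19. Sqle passed without resting ERRKO array 1 (0.37, adjusted p = 0.0288). Markers of erythroid precursors averaged 10.0 ± 0.99 in resting ERRKO cells against 5.57 ± 1.78 in resting WT cells. The 6 neutrophil markers averaged 7.41 ± 1.66 against 3.71 ± 1.29, and resting ERRKO array 1 was highest in both lists. Of 3 B cell markers tested, 2 were lower in resting ERRKO cells, with a median difference of -1.03. The part of these cells in the resting differences was not tested.

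The rise itself did not differ by genotype at an adjusted p under 0.05 for any of the 7 genes (limma interaction term), where 0.902% of all tested genes passed. An unadjusted p under 0.05 was found for 1 of the 7 genes, Sqle, and for 1200 of all 6873 tested genes. For Sqle the ERRKO rise was smaller by -0.49 (95% interval -0.88 to -0.11, adjusted p = 0.184), and it passed without resting ERRKO array 1 (-0.67, adjusted p = 0.0264). For Idi1 the estimate was -0.24 (-0.74 to 0.26), and for Mvd 0.71 (-0.09 to 1.51, adjusted p = 0.343).

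Across the 6 groups the genes kept much the same order. Stimulated WT cells had the highest mean for all 7 genes. For the 6 genes other than Mvd, stimulated ERRKO cells came next and compound A after them. Neighbours in that order overlapped for Hmgcs1 between stimulated ERRKO cells and compound A, and for Idi1 between stimulated ERRKO and stimulated WT cells; for Fdps, Fdft1, Sqle and Pmvk these 3 groups did not overlap one another. For Fdps and Fdft1 the XCT790, resting ERRKO and resting WT groups all overlapped at the bottom, for Pmvk XCT790 stood alone below both resting groups, and for Hmgcs1, Idi1 and Sqle it stood alone above them. Mvd had only 1 gap, between resting ERRKO and resting WT cells. The group means spanned 3.08 in Idi1, 2.58 in Pmvk and 2.21 in Sqle, and 1.39 in Hmgcs1, the narrowest range.

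Other probe sets of the same genes gave the same directions for stimulation and for both inhibitors. The 7 genes had 16 single-gene probe sets, of which 9 were not the main one and 3 of these, for Fdft1 and Fdps, were under log2 4 on all arrays. For XCT790 against stimulated WT cells, the second probe set of Fdft1 gave -1.83, that of Idi1 -1.23 and that of Mvd -1.61, and the other 3 of Hmgcs1 gave -0.84, -0.92 and -1.08. The main probe sets of Hmgcs1 and Fdft1 carry an x_at suffix and that of Mvd an s_at suffix, which the maker gives to probe sets whose probes may match other transcripts.

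Of 14 other enzymes of sterol synthesis, 11 were tested; the others are not analysed here. With XCT790 7 of the 11 were lower and 1 higher than in stimulated WT cells, with a median log2 difference of -1.13; over all genes tested 36.9% were lower, 29.1% higher and the median was -0.06. Cyp51, the lanosterol demethylase, read 7.54 ± 0.16 with XCT790 and 9.71 ± 0.01 in stimulated WT cells (-2.17 ± 0.21, adjusted p = 7.00e-07). Dhcr7, a reductase near the end of the pathway, read 6.92 ± 0.37 with XCT790 and 8.67 ± 0.11 in stimulated WT cells (-1.75 ± 0.15, adjusted p = 1.90e-07). Dhcr7 was also lower in stimulated than in resting WT cells (-0.39, adjusted p = 0.0274), a call that ended without resting or stimulated array 1 or 2 (adjusted p = 0.0518 to 0.0855). Nsdhl (-1.69), Lss, the lanosterol synthase (-1.47), Mvk, the mevalonate kinase (-1.40, near log2 4 or below it in every group), Sc5d (-1.13) and Ebp (-0.81) were the other 5 lower with XCT790. Ggps1, which makes geranylgeranyl diphosphate at the branch away from sterols, was higher with XCT790 (0.56, adjusted p = 0.0112). With compound A 4 of the 11 were lower than in stimulated WT cells, namely Lss (-1.10), Cyp51 (-0.94), Nsdhl (-0.63) and Sc5d (-0.34), and 2 were higher, Hsd17b7 (0.77, with stimulated WT cells at 3.39, under log2 4) and Ggps1 (0.52), beside 18.7% lower and 14.5% higher over all genes tested. The calls for Sc5d and Ggps1 with compound A ended without single arrays: stimulated WT array 1 or compound A array 3 for Sc5d (adjusted p = 0.0532 to 0.0586), and any stimulated WT array or compound A array 2 or 3 for Ggps1 (adjusted p = 0.0731 to 0.120).

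Among regulators of SREBP, 5 of 6 listed genes were tested. With XCT790 4 were higher than in stimulated WT cells and none lower: Insig2 (1.75 ± 0.21, adjusted p = 3.78e-06), Srebf1 (0.91 ± 0.09, adjusted p = 4.97e-07), Mbtps1, a protease that cuts SREBP (0.43 ± 0.09), and Scap (0.24 ± 0.07), where 29.1% of all tested genes passed upwards. With all probe sets of a gene averaged, Mbtps1 differed by 0.02 (adjusted p = 0.899). All 3 probe sets of Insig2 were higher with XCT790, by 0.71 to 1.75. Srebf2 had 2 probe sets that disagreed. Its brighter one gave 0.17 with XCT790 (adjusted p = 0.253) and the other read 7.22 ± 0.06 with XCT790 and 8.22 ± 0.04 in stimulated WT cells (adjusted p = 6.27e-05). With compound A only Insig2 passed (0.84 ± 0.21, adjusted p = 0.00658), and its other 2 probe sets did not (0.10 and 0.16).

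Of 9 genes for sterol uptake, transport and storage, 4 were tested. Lrp8 was under log2 4 on every array and so was not tested, and the others are not analysed here. With XCT790 2 of the 4 were lower and 1 higher than in stimulated WT cells, and Npc2 did not pass. With compound A 1 was lower and 1 higher. Over all genes tested 36.9% were lower and 29.1% higher with XCT790, and 18.7% lower and 14.5% higher with compound A. Scarb1, a receptor for high-density lipoprotein, read 5.63 ± 0.77 with XCT790 and 7.52 ± 0.11 in stimulated WT cells (-1.89 ± 0.40, adjusted p = 7.88e-04), and Stard4, a cytosolic sterol carrier, was lower by -0.67 ± 0.17. Lipa, the lysosomal lipase, was higher with XCT790 (0.80 ± 0.11) and with compound A (0.88 ± 0.11) than in stimulated WT cells. Its means of 9.54 with XCT790 and 9.62 with compound A lay below the 11.57 ± 0.04 of resting WT cells. Of 5 genes for sterol efflux and its control, 3 were tested, all known targets of the sterol sensor LXR. All 3 were higher with XCT790 and lower with compound A than in stimulated WT cells. Over all tested genes 29.1% were higher with XCT790 and 18.7% lower with compound A. Resting WT cells read 9.75 ± 0.28 for Abca1, 10.23 ± 0.04 for Abcg1 and 11.11 ± 0.11 for Mylip (log2 signal). Against resting WT cells all 3 were lower with XCT790 (median -1.85) and with compound A (median -4.11). There 38.3% of all tested genes passed downwards with XCT790, and 2548 of 6873 with compound A. Abca1, a cholesterol exporter, read 7.90 ± 0.06 with XCT790, 2.35 ± 0.28 with compound A and 3.46 ± 0.61 in stimulated WT cells, the last 2 under log2 4 in the mean. Abcg1, another exporter, differed from stimulated WT cells by 1.54 with XCT790 and by -0.63 with compound A, with XCT790 above compound A by 2.18 ± 0.19 (adjusted p = 4.99e-07). Mylip, a ubiquitin ligase, differed by 1.74 with XCT790 and by -0.48 with compound A, with XCT790 above compound A by 2.22 ± 0.15 (adjusted p = 4.02e-08). The compound A calls of Abcg1 and Mylip ended without stimulated WT array 2 or 3, that of Abcg1 also without compound A array 1 and that of Mylip without compound A array 2 (adjusted p = 0.0514 to 0.106), and that of Abca1 without stimulated WT array 3 (-0.82, adjusted p = 0.0556). Of 9 genes that use farnesyl or geranylgeranyl units elsewhere, 5 were tested. With XCT790 2 of the 5 were lower and 1 higher than in stimulated WT cells, with a median log2 difference of -0.10. Over all genes tested 36.9% were lower and 29.1% higher, with a median of -0.06, so these counts are near the shares of all genes. Dhdds, which starts dolichol, differed by -1.51 ± 0.15 with XCT790 (adjusted p = 7.86e-07) and by -0.56 ± 0.15 with compound A (adjusted p = 0.0111). With XCT790 Fntb, a subunit of farnesyltransferase, differed by -0.59 ± 0.23 (adjusted p = 0.0384), and Icmt, which methylates prenylated proteins, by 0.49 ± 0.10 (adjusted p = 7.07e-04). Leaving out XCT790 array 1 ended the call for Fntb (-0.31, adjusted p = 0.222), as did leaving out stimulated WT array 2 (adjusted p = 0.0727) or 3 (adjusted p = 0.112).

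**Figure D3:**
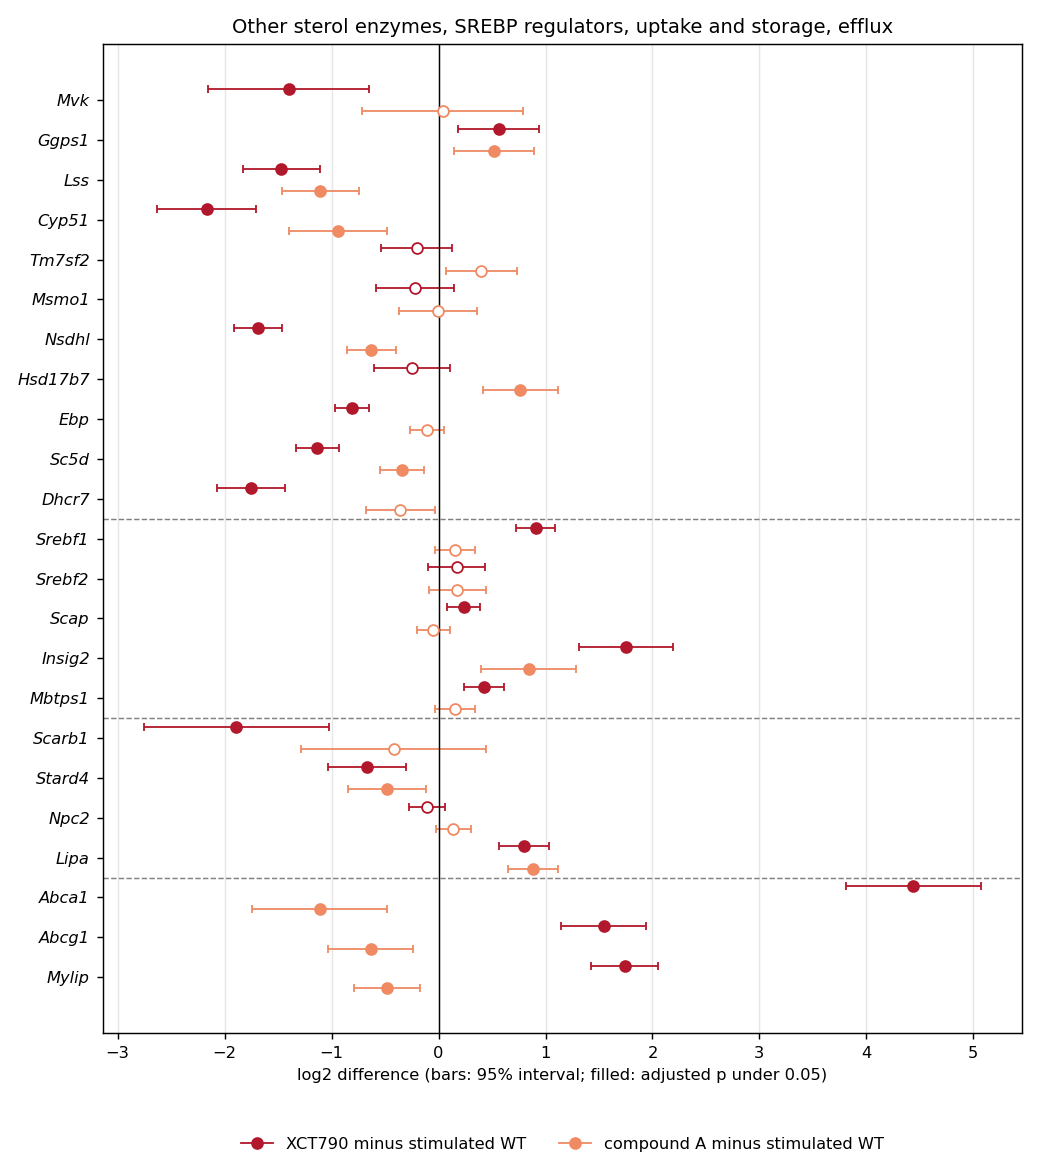
Log2 differences from stimulated WT cells (x axis) of 23 further genes of sterol metabolism with XCT790 and with compound A, with 95% intervals from limma; filled points have an adjusted p under 0.05. Dashed lines separate sterol enzymes, SREBP regulators, uptake and storage, and efflux; with XCT790 most enzymes lie left of 0, Srebf1 and Insig2 right of it, and Abcg1 and Mylip lie on opposite sides for the 2 inhibitors.

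Fdps and Fdft1 were the genes nearest to the shared pattern of the set, measured as the root mean square difference between a gene's 6 centred group means and the median of the 7 (0.0976 and 0.110 on the log2 scale), and Idi1 (0.739) and Mvd (0.457) were the furthest. By the same measure the 6 nearest genes outside the set were Elp4 (0.0845), Dhdds (0.121), Psmg3 (0.126), Prps2 (0.129), Arl2 (0.133) and Mrpl55 (0.133). The median was taken over the 7 genes themselves. The group means were centred but not scaled, so the span of a gene enters its distance. The likeness covers 6 group means of 3 arrays each and carries no test.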

How the data were processed

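RNA of CD4+ T cells was measured on 18 arrays in 6 groups of 3, taken from the labels. The authors deposited 1 log2 signal for each probe set and array, computed with GCRMA per the submitters' processing notes; its version is not given in the sources used here. Sorted, the values are identical on all 18 arrays (range 1.83 to 15.4), so differences are relative to the other genes of an array, and the number of arrays limits the precision. Of 22690 probe sets, 64 controls, 1555 without a gene in the platform annotation and 691 with several genes were left out.

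The 8 genes, the gene and marker lists and the comparisons were chosen with earlier results of these data known. The genes named are these 8, the members of the lists, the checks Esrra and Il2, and the 6 genes nearest in pattern. Each gene was represented by its single-gene probe set of highest mean, and 6873 genes reaching log2 4 on at least 3 arrays were tested. The 10 comparisons were fitted in 1 limma 3.58.1 model (R 4.3.3; 1 mean per group, no block; two-sided tests with 12 residual and 2.22 prior degrees of freedom), with Benjamini-Hochberg adjustment over all tested genes of a comparison and 0.05 as the threshold. P-values set each difference against the spread between the samples of a group, pooled over the 6 groups and moderated across genes. Fold changes are powers of the log2 differences. On simulated data of stimulated against resting wild-type cells with 6873 genes, 50 genes were changed at each fold size, in stimulated wild-type arrays alone. The fit recovered 56% of genes changed 1.5-fold, 82% at 2-fold, 92% at 4-fold and 100% at 8-fold. In the measured comparison 75.4% of genes passed, which makes the Benjamini-Hochberg cut looser. The recovered shares therefore describe the simulated setting alone.

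The fit was repeated without the filter, with a log2 floor of 6, with arrays moved to 1 median, with a gene's probe sets averaged, with array numbers as a block, on the compared groups alone, with array weights, with a trended, robust prior, and without each array in turn. The arrays numbered 2 and 3 alone, and stimulated knockout cells as the inhibitors' controls, were added after seeing the data. The labels name no shared animal or day for equal array numbers. The deviations of equally numbered arrays correlated above 0.1 in all 3 pairs in the comparisons of either inhibitor with stimulated wild-type cells, in the genotype comparisons (at rest 0.645, 0.406 and 0.254) and in the response of knockout cells, but not in the other comparisons. Promoter windows and coordinates are RefSeq's (GRCm38.p6); the array files name no build. Python 3.11.15 and matplotlib 3.10.9 made the figures.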

Additional observations from a re-analysis of the deposited data

How the results depend on the processing

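Of 1894 recomputed differences of the 7 genes, 1841 kept their side of the threshold, 32 no longer passed and 21 newly passed. None that passed in either fit changed direction. Some that passed in neither fit changed sign, and these are among the 1841. For example, Fdps with XCT790 against resting WT cells ran from -0.33 to 0.05 without single arrays. Counts of called genes of the set moved by over 1.5 times in 4 comparisons. For resting ERRKO against resting WT cells (1 gene, Mvd) the count was 0 without a filter, with the mean of all probe sets and on the compared groups alone. It was 2 with array weights, and 0 to 1 when single arrays were left out. With a floor of log2 6 it was also 0, but there Mvd, at most 5.68 on any array, was not tested. For stimulated ERRKO against stimulated WT cells (0 genes) it was 5 with array weights and 2 on arrays 2 and 3 alone; for the interaction (0 genes) it was 3 and 2 under the same settings, and 0 to 1 without single arrays. For compound A against stimulated WT cells (6 genes) it was 3 with stimulated ERRKO cells as controls and 4 to 6 without single arrays. Smaller moves included 5 to 7 genes without single arrays for XCT790 against compound A (7 genes), 5 to 6 for XCT790 against resting WT cells (5 genes), and on the compared groups alone 7 for stimulated against resting WT cells (6 genes) and 6 for the same response in ERRKO cells (7 genes), Mvd being the gene gained and lost.

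Over all genes tested, stimulated against resting ERRKO cells had 5042 calls and 8197 without a filter. Resting ERRKO against resting WT cells had 1308 calls, 176 on the compared groups alone, 2379 with array weights and 612 to 1489 without single arrays. Stimulated ERRKO against stimulated WT cells had 150, 253 with the mean of all probe sets, 1639 with array weights, 432 on arrays 2 and 3 alone and 66 to 253 without single arrays. The interaction had 62, 39 with a floor of log2 6, 38 on the compared groups alone, 1222 with array weights, 574 on arrays 2 and 3 alone and 22 to 141 without single arrays. Compound A against stimulated WT cells had 2283, and 4048 with array weights. The estimation of array weights stopped before convergence, and the other causes were not tested.

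With the array number as a block, the replicate pairing changed the interaction count over all genes to 123. It changed the count of called genes of the set only for XCT790 against compound A, where 6 of 7 passed and Idi1 did not (limma, adjusted p = 0.0509). In that comparison the deviations of equally numbered arrays correlated at 0.163, 0.0518 and 0.223. Among the other genes named, Srebf2 turned to -0.42 (XCT790 against stimulated WT cells) and -0.0641 (XCT790 against resting WT cells) with the mean of all probe sets, and with stimulated ERRKO cells as controls Hsd17b7 with compound A turned to -0.10, and Esrra to 0.65 with XCT790 and 0.66 with compound A.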
